A study of Mus musculus with 2 samples.

Results

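The genes described here encode the MAP kinase cascades and the dual-specificity phosphatases (Dusp), some of which act against those cascades. They were chosen by name, as the protein-coding genes whose symbol is Mapk, Map2k, Map3k, Map4k or Dusp followed by a number alone. This gave 67 of the 21631 protein-coding genes on chromosomes 1 to 19 and X, with 13 Mapk, 7 Map2k, 18 Map3k and 5 Map4k genes, 43 kinases in all, and 24 Dusp genes. The rule uses no measured value, but it was set with earlier results of these data known.

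In a MAP kinase cascade, a Map3k enzyme phosphorylates a Map2k, which phosphorylates a MAP kinase on both a threonine and a tyrosine of its activation loop, and Map4k enzymes act above the Map3k tier. Dusp phosphatases of the MAP kinase phosphatase type remove those phosphates, and several of their genes are themselves induced by the pathway they shut off. In T cells these cascades carry signals from the antigen receptor, from costimulation and from inflammatory cytokines.

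The mark measured was H3K36me2, dimethylation of lysine 36 on histone H3, which the methyltransferase NSD2 deposits. It was profiled in splenic regulatory T (Treg) cells of C57BL/6 mice by an in situ, transposase-based ChIP method, with 1 library from wild-type mice and 1 from mice carrying a Treg conditional deletion of Nsd2. The wild-type library held 17158154 tags and 54527 called regions, and the knockout library 14789700 tags and 39745 regions. The sources used here do not give the Cre driver, the antibody, the age of the mice or the number of mice behind each library. With 1 library per genotype there is no replicate error, and p-values are not printed. Intervals cover counting error only and treat counts as independent. Tags are PCR reads without molecular identifiers, so the intervals can be too narrow even for counting error. The intervals compare these libraries, not the genotypes. Summed tags count called regions alone, so their intervals leave out tags elsewhere in a gene and the calling of regions itself.

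The measure was the covered share, the percentage of a gene's body, from annotated start to end, that lay inside called regions. Regions covered 42314794 bp of chromosomes 1 to 19 and X in wild type against 31445288 bp in the knockout, which is 74.3% of the wild-type length, so differences at single genes are read against this background. The caller also asked for more tags in the shallower knockout library, 8.11 per 10000000 against 7.58. A gene without a region is therefore one where no stretch passed the threshold, not one without the mark. The covered share of Foxp3, the transcription factor that defines Treg cells, was 17.6% in wild type against 29.9% in the knockout, and 5 of 6 Treg marker genes held a region in each library, the exception being Ctla4. Over the marker lists of other cells, the pooled covered shares in wild type and knockout were 2.64% and 2.01% for B cells (lower at Pax5, higher at Cd79a with 14.7% and 22.9% and at Cd79b with 39.8% and 48.8%), and 4.92% and 6.06% for myeloid cells. Of 5 NK and CD8 T cell markers 3 held a wild-type region and none a knockout region (4.87% and 0%), with Cd8a and Ncr1 at 0 in both, and of 3 erythroid markers only Klf1 held one, in wild type (3.53% and 0%). The part of such cells in the differences at kinase and phosphatase genes was not tested.

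As a whole, the kinase and phosphatase genes were more often marked than other genes of at least 2 kb, and their covered length was lower in the knockout by about the same proportion as over all genes. Of the 65 of at least 2 kb, 53 (81.5%) held a wild-type region, against 49.4% of all 19190 coding genes of that length, and 44 (67.7%) held a knockout region, against 45.1%. A region in both libraries was found at 41 of them. A wild-type region with no knockout region was found at 12, or 18.5%, beside 13.3% of all genes, and the reverse at 3, or 4.62%, beside 9.05%. The remaining 9 held none, and neither did the 2 shorter genes, Dusp21 and Dusp28. Together the 67 bodies were covered over 131918 bp in wild type against 99369 bp in the knockout, which is 75.3% of the wild-type length, against 74.8% over all coding genes. The pooled covered share, covered base pairs over all base pairs of the bodies, went from 3.92% to 2.96% for them and from 2.53% to 1.89% for all coding genes.

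Gene by gene, covered shares were smaller in the knockout at 34 of the 56 genes with a region in either library, larger at 20 and equal at 2 (Dusp11 and Dusp14). Over the 11217 genes measured in the same way, 59.7% were smaller and 36.7% larger. The median difference was -0.73 percentage points for the kinase and phosphatase genes and -0.69 over all genes, so they sat near the middle of the genome. A difference of at least 20 points, a cutoff of size without a test, was reached downward by 3 genes, Dusp6, Dusp7 and Dusp23, and upward by Mapk11 alone. Such a drop was found at 1.71% of all genes measured and such a gain at 1.93%. All 4 are short genes of 2 to 10 kb, where a single region weighs heavily: among genes of that length 7.89% were lower and 9.36% higher by as much. In that class 3 of 6 measured Dusp genes and 0 of 4 measured kinase genes were lower, and 0 and 1 were higher. Just short of the threshold were Map2k7 at 17.7 points higher, Dusp4 at 14.4 higher and Dusp13 at 14.1 lower.

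**Figure D1:**
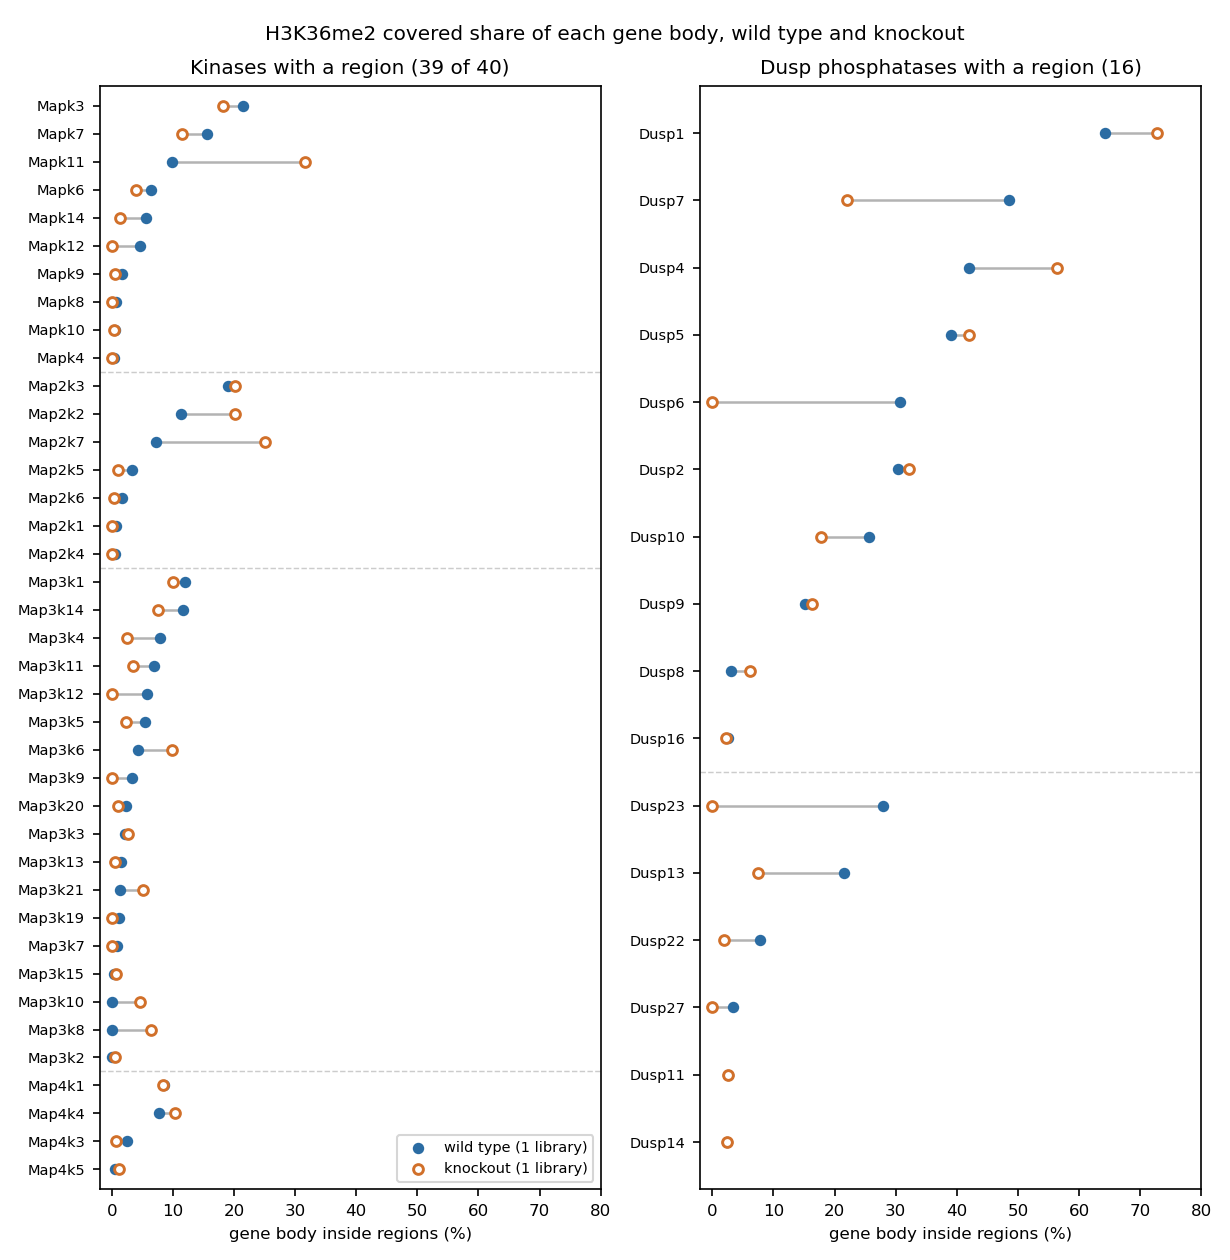
Covered share of each gene body with a region in either library, in percent of the body (x axis), for 39 of the 40 kinase genes on the left and the 16 Dusp genes on the right, with filled blue points for the wild-type library and open orange points for the knockout library. Kinase genes lie below 32% in both libraries, while Dusp1 reaches 64.2% in wild type against 72.8% in the knockout, and Dusp6 and Dusp23 drop to 0%.

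Among the Map4k genes, the uppermost tier, marking was concentrated in Map4k4 and was as extensive in the knockout as in wild type. The 5 bodies were covered over 15668 bp in wild type against 16976 bp in the knockout, 108% of the wild-type length. They held 25 wild-type and 24 knockout regions, a ratio of 96.0% with an exact binomial 95% interval of 52.5% to 175%.

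Map4k4 encodes a Ste20-family kinase that acts upstream of JNK. It lies on chromosome 1 at 39900902 to 40026310 and carried 15 wild-type regions over 9665 bp, a covered share of 7.71%, and 17 knockout regions over 12957 bp, a share of 10.3%. Its regions summed to 157 tags per 10000000 (exact Poisson 95% interval 139 to 177) in wild type and 222 (199 to 248) in the knockout. The intervals did not overlap, and 5444 bp lay in regions of both libraries, so much of the covered length lay at different positions. Map4k4 had the most covered base pairs of any kinase gene in the knockout, and without the most covered kinase the kinase total in the knockout was 68.6% of wild type in place of 75.6%.

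Map4k1, which encodes HPK1, a kinase that dampens antigen receptor signalling in T cells, had nearly the same amount of covered length in both libraries. It held 3 regions in each, covering 1826 bp in wild type against 1766 bp in the knockout, with shares of 8.6% and 8.32%, but 764 bp were common to both. Map4k3 went from 6 regions and 2.48% in wild type to 2 regions and 0.759% in the knockout. Map4k5 had 0.559% and 1.26%, and Map4k2 held no region in either library. The tier's total was thus carried by a single gene.

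The Map3k genes accounted for most of the covered length that the kinases had in wild type and not in the knockout. Their 18 bodies were covered over 46696 bp in wild type against 29570 bp in the knockout, 63.3% of the wild-type length, and the pooled share went from 3.71% to 2.35%. Regions numbered 68 and 43, a ratio of 63.2% (exact binomial 95% interval 42.1% to 94.0%), whose interval includes the 74.7% of all coding genes. Per gene the picture was mixed.

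Map3k5 encodes ASK1, a kinase activated by oxidative stress. Its 209 kb body on chromosome 10 (19934101 to 20142750) held 17 wild-type regions over 11484 bp and 7 knockout regions over 4982 bp, shares of 5.50% and 2.39%. Summed tags were 186 (166 to 207) and 79.2 (65.5 to 94.9) per 10000000. No other gene of the 67 had a larger drop in covered base pairs. Restricted to regions of at least 1000 bp the difference was 0.18 points in the opposite direction, so the shorter regions made it up.

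Map3k4, which encodes MEKK4, an activator of the p38 and JNK pathways, went from 10 regions and 7191 bp to 4 regions and 2274 bp, or from 7.89% to 2.49%. Summed tags were 108 (93.2 to 125) in wild type and 36.1 (27.1 to 47.2) in the knockout. Map3k14 encodes NIK, the kinase of the noncanonical NF-kB pathway, and went from 7 regions and 11.6% to 6 regions and 7.52%. Both differences kept their sign under every alternative processing of the regions.

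Map3k1, which encodes MEKK1, was the most densely covered Map3k gene. It lies on chromosome 13 at 111746428 to 111818269 and held 8 wild-type regions over 8660 bp (12.1%) and 6 knockout regions over 7162 bp (9.97%), of which 4735 bp were shared. Summed tags were 138 (121 to 156) and 121 (104 to 140), with overlapping intervals. At Map3k4 and Map3k5 the intervals did not overlap. Across alternatives the difference at Map3k1 ranged from -7.05 to 0.003 points, with the opposite sign under 3 of 7. With the 50% of regions of highest score its share was 9.97% in wild type against 2.91% in the knockout.

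Smaller amounts were found at other genes of the tier. Map3k20, which encodes the ribotoxic stress kinase ZAK, went from 3751 to 1630 bp. Map3k9, a mixed-lineage kinase gene, held 3 wild-type regions over 2144 bp and no knockout region, and Map3k12, which encodes DLK, held 1125 bp and none. The body of Map3k12 overlaps the coding genes Pcbp2 and Tarbp2, so its regions cannot be assigned to it alone. Map3k7 encodes TAK1, which links cytokine and antigen receptors to NF-kB and MAP kinases, and held a single wild-type region of 500 bp and none in the knockout.

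In the opposite direction, Map3k8, which encodes TPL2, a kinase that activates the ERK pathway, held no wild-type region and 3 knockout regions covering 6.49% of its body. Map3k6 went from 4.24% to 9.87%. The knockout regions of Map3k8 summed to 31.1 tags (22.7 to 41.4) per 10000000.

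The Map2k genes split by length, with higher covered shares in the knockout at the short Map2k2 and Map2k7 and a lower one at the long Map2k5. The 7 bodies were covered over 16934 bp in wild type against 13092 bp in the knockout, 77.3% of the wild-type length, with 23 and 19 regions (ratio 82.6%, interval 42.5% to 159%).

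Map2k2 encodes MEK2, an activator of ERK. It lies on chromosome 10 at 81105913 to 81124697 and was covered over 2137 bp (11.4%) in 4 wild-type regions and 3798 bp (20.2%) in 3 knockout regions. A single knockout region of 3014 bp, from 81105696 to 81108710, spanned its start site and held 46.3 tags, where wild type had a region of 637 bp with 9.33 tags inside the gene. Summed tags were 32.1 (24.2 to 41.7) and 62.5 (50.4 to 76.6), and the covered share was higher in the knockout under every alternative processing of the regions. Map2k1, the gene of the partner kinase MEK1, held 1 wild-type region of 500 bp and none in the knockout.

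Map2k7 encodes MKK7, an activator of JNK, and went from 1 region and 670 bp (7.32%) to 3 regions and 2294 bp (25%). Summed tags were 9.62 (5.55 to 15.5) and 36.5 (27.4 to 47.6). The difference turned to -1.86 points under 1 alternative processing of the regions. Map2k4, which encodes MKK4, the other JNK activator, held a single wild-type region of 500 bp and none in the knockout.

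Map2k5 encodes MEK5, the activator of ERK5. On its 218 kb body on chromosome 9 (63163768 to 63381682), 9 wild-type regions covered 7052 bp (3.24%) and 4 knockout regions covered 2316 bp (1.06%). No base pair was shared between the libraries, so there the regions of one did not recur in the other. Summed tags were 105 (90.7 to 122) and 39.2 (29.8 to 50.7).

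The genes of the p38 activators differed from each other. Map2k3, which encodes MKK3, was covered at 19% in 4 wild-type regions and at 20.2% in 8 knockout regions, with 3944 and 4184 bp. Map2k6, which encodes MKK6, went from 3 regions and 2131 bp to 1 region and 500 bp.

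At the MAP kinases themselves marking was sparse. The 13 bodies had the lowest pooled share of the tiers, 1.54% in wild type against 1.2% in the knockout, with 18 and 16 regions (ratio 88.9%, interval 42.4% to 185%). Covered length in the knockout was 78.4% of that in wild type.

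Mapk3, which encodes ERK1, was covered at 21.4% in wild type against 18.2% in the knockout, by 2 regions in each, but not a single base pair was common to both.

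The p38 genes differed by member. Mapk14, which encodes p38 alpha, the main form in T cells, went from 4 regions and 3243 bp (5.68%) to 2 regions and 769 bp (1.35%). Summed tags were 45.4 (35.9 to 56.7) and 22 (15.1 to 30.9). Mapk11, which encodes p38 beta, went the other way, from 1 region of 699 bp (9.81%) to 2 regions over 2253 bp (31.6%), and its wild-type region lay wholly inside a knockout region. Its summed tags were 10.2 (5.99 to 16.2) and 35.8 (26.8 to 46.8). With the 50% of regions of highest score in each library the difference at Mapk11 was -0.97 points. Mapk12, which encodes p38 gamma and lies beside Mapk11, held 1 wild-type region of 500 bp and none in the knockout, and Mapk13 held none in either library.

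The JNK genes were the most sparsely covered subgroup, at 0.668% in wild type against 0.365% in the knockout. Mapk8, which encodes JNK1, held a single wild-type region of 500 bp and none in the knockout. Mapk9, which encodes JNK2, had 682 bp in wild type against 219 bp in the knockout.

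**Figure D2:**
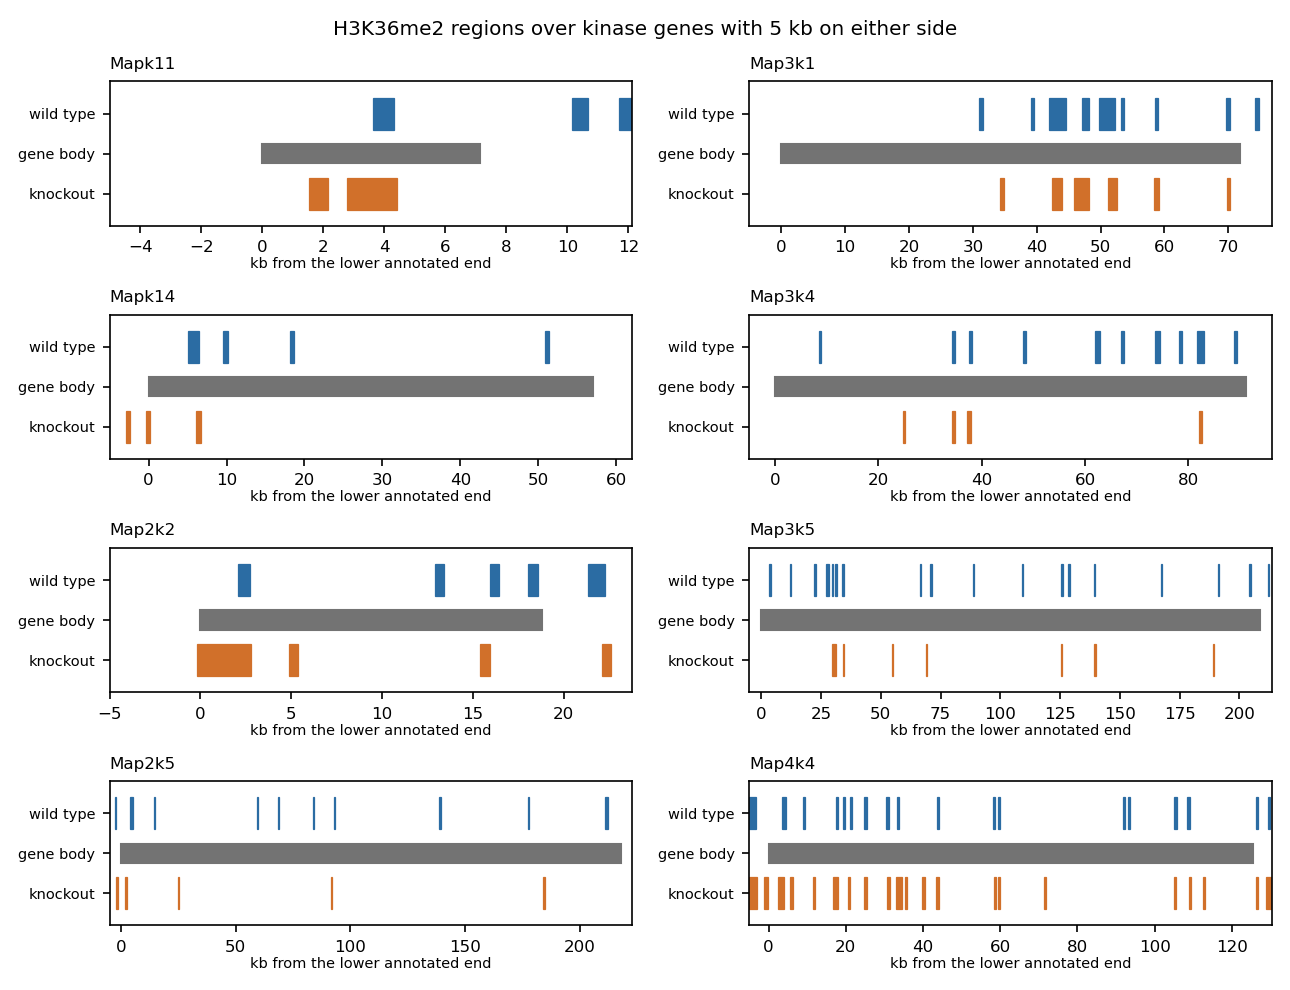
Regions over 8 kinase genes with 5 kb on either side, in kb from the lower annotated end of the gene (x axis), with wild-type regions above the grey gene bar and knockout regions below it. Counting regions that touch the gene body and leaving out the flanks, wild-type regions are more numerous along Map3k5 (17 against 7) and Map2k5 (9 against 4). On the same count Map4k4 carries 15 and 17, and Map3k4 carries 10 and 4. A single knockout region of 3014 bp covers the start of Map2k2.

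For all 43 kinases, 90650 bp were covered in wild type against 68539 bp in the knockout, 75.6% of the wild-type length, in 134 and 102 regions (ratio 76.1%, interval 58.3% to 99.2%). Covered shares were smaller in the knockout at 26 kinase genes and larger at 14, and 3 held no region (Map4k2, Mapk13 and Mapk15). A common threshold was set at 13.92, the knockout tag threshold scaled to wild-type depth. Wild-type regions of 500 bp whose deposited score, not tag count, lay below it were left out. The kinases' covered length in the knockout was then 95.7% of wild type and their number of regions 106%. This setting removed wild-type regions alone, so both ratios could only rise. Its value over all coding genes was not computed, so the rise cannot be read as particular to kinases.

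The Dusp genes were more densely covered than the kinases. Their pooled share was 10.2% in wild type against 7.64% in the knockout, against 3.06% and 2.32% for the kinases. The 24 bodies were covered over 41268 bp and 30830 bp, 74.7% of the wild-type length, in 49 and 34 regions (ratio 69.4%, interval 43.4% to 110%). With the common threshold on the score the knockout had 83.9% of the length and 85.0% of the regions. A covered share of at least 20% in wild type was found at 9 Dusp genes and 1 kinase gene, Mapk3, beside 4.91% of all coding genes that long, and in the knockout at 5 and 4, beside 4.58%. Part of this goes with length, since short genes more often reach such a share: the median body was 11845.5 bp for Dusp genes and 57064 bp for kinases, and 9.47% of all genes of 2 to 10 kb reached 20% in wild type (9.57% in the knockout), against 4.29% at 10 to 30 kb (4.01%). The difference also rests on a few genes. Taking the median over single genes, the families had 3.20% and 2.39% in wild type, a gap of 0.81 points in place of 7.17, and 0.83 points in place of 5.33 in the knockout.

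Among the Dusp genes the contrast was between typical MAP kinase phosphatases, which carry a MAP kinase binding domain, and the atypical ones, which lack it. The 10 typical genes (Dusp1, Dusp2, Dusp4 to Dusp10 and Dusp16) all held a wild-type region, with a pooled share of 16.1% in wild type against 14.2% in the knockout, 88.2% of the covered length. The 14 atypical genes had 4.73% and 1.51%, or 31.9% of the covered length, and 8 of them held no region in either library. Regions numbered 34 and 28 at the typical genes (ratio 82.4%, interval 48.1% to 140%) and 15 and 6 at the atypical ones (40.0%, 12.7% to 109%), with overlapping intervals, and the difference between the ratios was not tested.

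Dusp1, Dusp2, Dusp4 and Dusp5, genes of nuclear, inducible phosphatases, had covered shares of 30.3% or more in both libraries. Dusp1 encodes MKP-1, an immediate early gene product that inactivates p38, JNK and ERK. Its body of 2882 bp on chromosome 17 (26505591 to 26508472) was covered at 64.2% in 2 wild-type regions and 72.8% in 1 knockout region. That knockout region ran over 4154 bp, from 26506375 to 26510529, with 76.4 tags (63.0 to 91.9), and contained the wild-type region of 2118 bp with 37.3 tags (28.7 to 47.6). With 5 kb on either side, regions covered 3762 bp in wild type against 8742 bp in the knockout. The surroundings of Dusp1 were thus more widely covered in the knockout, although the share of the body alone turned to -14.9 points under 1 alternative processing.

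Dusp2 encodes PAC-1, a nuclear phosphatase first found in activated T cells. The body, at 127336159 to 127338377 on chromosome 2, was covered at 30.3% and 32.2%, but the signal lay beside it. A wild-type region of 4868 bp ended 46 bp past the start site and held 136 tags (119 to 154), and a knockout region of 5380 bp, which contained it whole, held 126 (109 to 146). These were the longest regions and the highest tag counts at any kinase or phosphatase gene in either library, and the intervals of their tags overlapped. With flanks, 8311 bp and 8387 bp were covered, within 1% of each other. The share of the body alone ranged from -23.0 to 69.7 points across alternatives. Of the large regions, 47 bp of the wild-type one and 99 bp of the knockout one lay in the body.

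Dusp4, which encodes MKP-2, and Dusp5, an ERK-specific nuclear phosphatase gene, were covered over much of their bodies. Dusp4 (chromosome 8, 34807610 to 34819894) had 5162 bp (42.0%) in wild type against 6927 bp (56.4%) in the knockout, in 4 regions each. Its summed tags were 88.7 (75.2 to 104) and 121 (104 to 140). Dusp5 (chromosome 19, 53529145 to 53541809) had 4952 bp (39.1%) in 5 regions and 5311 bp (41.9%) in 3, with 79.2 (66.4 to 93.7) and 91.6 (76.8 to 108) tags. The share of Dusp4 was higher in the knockout under every alternative, by 3.42 to 38.6 points, while that of Dusp5 changed sign.

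Dusp10 encodes MKP-5, which acts on JNK and p38. It had the most covered base pairs of all 67 genes in wild type but for Map3k5, 10563 bp in 12 regions (25.6%), and 7333 bp in 9 regions (17.8%) in the knockout, of which 4885 bp were shared. Summed tags were 214 (193 to 237) and 165 (145 to 187), without overlap of the intervals. Its covered length in the knockout was 69.4% of wild type, beside 76.1% over all coding genes of 30 to 100 kb. The share was lower in the knockout under every alternative. Dusp16, another JNK and p38 phosphatase gene, was sparsely covered, at 2.51% and 2.24%.

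Dusp6 and Dusp7, genes of cytoplasmic ERK phosphatases, had lower covered shares in the knockout, while Dusp9, the gene of another, had 15.1% in wild type and 16.2% in the knockout; Dusp9 was added after its values were seen. Dusp6 encodes MKP-3, a feedback inhibitor of ERK. Its body on chromosome 10 (99263231 to 99267489) was covered at 30.7% by 2 wild-type regions of 807 and 500 bp, with 19.2 tags (13.2 to 27.0) in sum, and held no knockout region. Both regions were weak, and under stricter tag or score settings Dusp6 no longer differed by 20 points. Dusp7 encodes a related phosphatase. Its body on chromosome 9 (106368560 to 106375724) held 1 wild-type region of 3473 bp (48.5%) and 2 knockout regions, of 696 and 888 bp (22.1%), both inside it. Its summed tags were 44.9 (35.4 to 56.1) and 27.4 (19.6 to 37.2), with intervals that just overlapped, and the share was lower in the knockout under every alternative, by 19.5 to 48.5 points.

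Taken as a set chosen after their values were seen, Dusp1, Dusp2, Dusp4, Dusp5 and Dusp10 were covered at 32.5% in wild type against 31.4% in the knockout, and the other 19 Dusp genes at 5.44% and 2.54%. This is a description and not a test.

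Among atypical genes, Dusp22 encodes JKAP, a phosphatase that inactivates the kinase LCK in T cells. On its 51 kb body on chromosome 13 (30660059 to 30711232), 6 wild-type regions covered 3958 bp (7.73%) and 2 knockout regions 1000 bp (1.95%). Summed tags were 60.9 (49.8 to 73.7) and 16.6 (10.7 to 24.6), and the share was lower in the knockout under every alternative. Dusp13 went from 4 regions and 3295 bp (21.6%) to 2 regions and 1144 bp (7.50%), also under every alternative. Dusp23 held a single wild-type region covering 615 bp (27.9%) with 10.2 tags (5.99 to 16.2), and none in the knockout. Dusp3, Dusp12, Dusp15, Dusp18, Dusp19 and Dusp26, all of at least 2 kb, held no region in either library. The 17 measured kinase and phosphatase genes outside the rule for named genes differed by -3.94 to 4.50 points, and none was covered over more than 2000 bp.

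**Figure D3:**
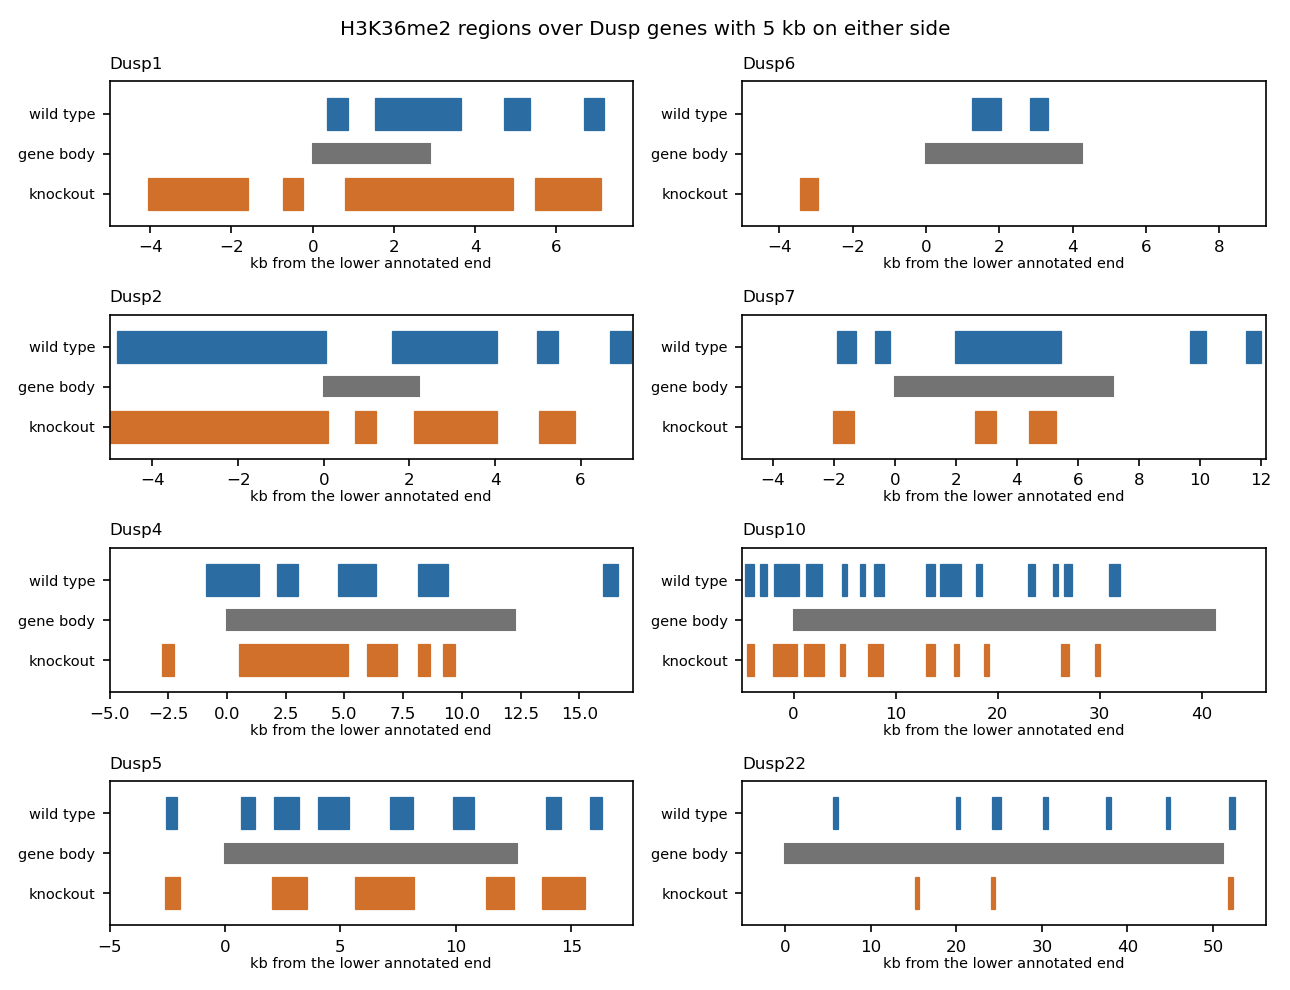
Regions over 8 Dusp genes with 5 kb on either side, in kb from the lower annotated end of the gene (x axis), with wild-type regions above the grey gene bar and knockout regions below it. The large region before Dusp2 is present in both libraries (4868 and 5380 bp), regions around Dusp1 cover more in the knockout (8742 against 3762 bp), and Dusp7 and Dusp22 are more widely covered in wild type.

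Gene length went with covered share in both families. Across the 56 genes with a region, Spearman's rho between body length and covered share was -0.64 in wild type and -0.50 in the knockout, and between the covered shares of the libraries it was 0.60. These describe genes of a single library each, share that library's depth, and carry no test. Length also went with the change between libraries. Over all coding genes, the covered length in the knockout was 101% of wild type for genes of 2 to 10 kb, 88.2% at 10 to 30 kb, 76.1% at 30 to 100 kb, 66.1% at 100 to 300 kb and 60.2% above. The kinases had 178% (6 genes), 118% (11), 65.8% (15) and 61.1% (10), and 81.6% at the single kinase gene of 300 kb or more, Mapk10, which does not continue the order. Mapk11 and Map2k7, which differ most among them, are both in the shortest class. The kinases of that class held 5 wild-type and 9 knockout regions (ratio 180%, interval 54.2% to 684%). Their 178% thus rests on few regions, and largely on these genes. The Dusp genes did not follow this order, with 59.3% (8 genes), 96.7% (11) and 61.7% (3) in the first 3 classes, where single genes such as Dusp7 weigh heavily.

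**Figure D4:**
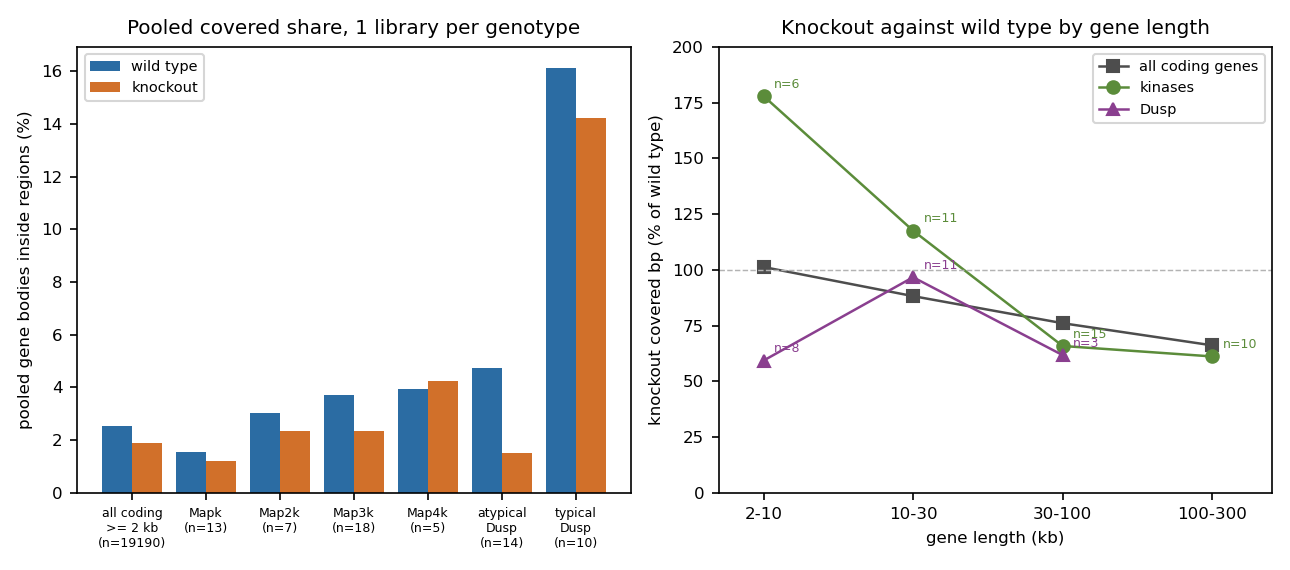
Left, pooled covered share of gene bodies in percent for all coding genes, each kinase family and the atypical and typical Dusp genes, with bars for the wild-type and knockout libraries. Right, covered base pairs in the knockout as a percentage of those in wild type (y axis) by gene length class for all coding genes, kinases and Dusp genes. All genes go from 101% in the shortest class to 66.1% in the longest drawn, and the kinases from 178% to 61.1%. The 178% rests on 5 wild-type and 9 knockout regions.

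The regions themselves were longer and more often shared at Dusp genes as a family, but the long ones were all at typical genes. Their median length was 677 bp in wild type against 670 bp in the knockout at Dusp genes, against 500 and 562.5 bp at kinases and 500 bp over all regions of either library. The caller's shortest region is 500 bp, and 32.7% of wild-type regions at Dusp genes had that length, against 52.2% at kinases and 52.7% of all regions. Regions of at least 2 kb made up 7 of 49 in wild type and 5 of 34 in the knockout at Dusp genes, 14.3% and 14.7%, beside 3.79% and 4.26% of all regions. All of these, and the 4 wild-type and 2 knockout regions of that length at kinases, overlapped a region of the other library. Of all wild-type regions, 49% at Dusp genes and 33.6% at kinases were shared, against 29.8% genome-wide, and of knockout regions 70.6% and 46.1% against 41.0%. The Dusp regions of at least 2 kb lay at Dusp1, Dusp2, Dusp4, Dusp5, Dusp7 and Dusp10. The longest region at an atypical gene was 1226 bp, at Dusp13. Of wild-type covered base pairs, 47.6% at typical and 10.2% at atypical genes were also covered in the knockout, against 28.7% over all coding genes.

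Strand and start sites were known for 52 of the 67 genes from the RefSeq promoter table of GRCm38.p6. Along the body, the 25% of the body nearest the start held 33.7% of the covered base pairs of kinases in wild type (33.0% in the knockout), and 29.2% and 34.2% at Dusp genes, beside 27.2% and 29.4% over all coding genes. Within 1 kb of the start, 15.8% of base pairs in wild type against 14.5% in the knockout lay in regions at Dusp genes, and 9.0% and 13.2% at kinases, against 5.53% and 5.83% over all genes. Most of the Dusp base pairs were at Dusp1 (1768 bp in wild type and 2000 in the knockout), Dusp10 (1551 and 1361) and Dusp2 (1046 and 1376). Of the other Dusp genes with a known start, only Dusp11 (500 and 500), Dusp7 (500 and 0) and Dusp5 (322 and 0) had any.

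The 250 bases before the start were touched by a region in both libraries at 8 of the 52 genes (15.4%, against 4.98% of 17274 coding genes). The 8 were Dusp1, Dusp2, Dusp10, Map2k3, Map3k3, Map3k14, Mapk6 and Mapk9. Another 3, Map2k2, Mapk7 and Mapk14, were touched in the knockout alone (5.77% against 5.05%), Dusp7 in wild type alone (1.92% against 5.04%), and 40 in neither (76.9% against 84.9%).

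The windows of Dusp1, Dusp2 and Dusp10 are printed because they were the Dusp windows that lay whole inside regions of both libraries. They are 250 bases of GRCm38.p6 from RefSeq, written 5′ to 3′ on the gene's strand and ending at the base before the start site. Dusp1 is at chr17:26508473-26508722 on the minus strand, Dusp2 at chr2:127335909-127336158 and Dusp10 at chr1:184034131-184034380, both on the plus strand. Capitals mark matches, on either strand, to the cyclic AMP response element (TGACGTCA), the AP-1 site (TGACTCA), the GC box (GGGCGG), the ETS core (CCGGAA), the TATA box (TATAAA) and the E box (CACGTG).
Dusp1: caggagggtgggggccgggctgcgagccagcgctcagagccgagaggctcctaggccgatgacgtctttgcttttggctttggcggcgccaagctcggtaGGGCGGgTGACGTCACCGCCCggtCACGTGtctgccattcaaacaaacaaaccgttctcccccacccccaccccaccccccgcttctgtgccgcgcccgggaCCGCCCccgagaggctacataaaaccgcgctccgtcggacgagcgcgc
Dusp2: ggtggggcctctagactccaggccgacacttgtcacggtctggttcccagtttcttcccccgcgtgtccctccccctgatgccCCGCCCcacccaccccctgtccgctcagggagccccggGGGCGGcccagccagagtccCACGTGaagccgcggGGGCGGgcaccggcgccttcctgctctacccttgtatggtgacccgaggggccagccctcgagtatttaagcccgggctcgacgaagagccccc
Dusp10: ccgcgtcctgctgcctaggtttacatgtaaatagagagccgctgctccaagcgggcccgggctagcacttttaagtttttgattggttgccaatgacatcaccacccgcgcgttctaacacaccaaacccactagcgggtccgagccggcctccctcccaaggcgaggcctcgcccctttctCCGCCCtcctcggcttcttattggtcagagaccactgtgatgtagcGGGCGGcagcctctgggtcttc

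Dusp1 holds 1 cyclic AMP response element, which lies directly against a GC box on the reverse strand, 3 GC boxes in all and 1 E box. Dusp2 holds 3 GC boxes and 1 E box, and Dusp10 holds 2 GC boxes. The cyclic AMP response element was found in 2.01% of the windows of all coding genes, the E box in 6.73% and the GC box in 43.2%. A match is a run of letters and not a shown binding site.

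The windows of Map2k2, Mapk7 and Mapk14 are printed beside them because they were touched in the knockout library and by no wild-type region. Mapk7, the gene of ERK5, was chosen for this after its values were seen. Map2k2 is at chr10:81105665-81105914 and Mapk14 at chr17:28691092-28691341, both on the plus strand, and Mapk7 at chr11:61494267-61494516 on the minus strand. Regions of the knockout covered 218 bases at Map2k2 and all 250 at Mapk7 and Mapk14.
Map2k2: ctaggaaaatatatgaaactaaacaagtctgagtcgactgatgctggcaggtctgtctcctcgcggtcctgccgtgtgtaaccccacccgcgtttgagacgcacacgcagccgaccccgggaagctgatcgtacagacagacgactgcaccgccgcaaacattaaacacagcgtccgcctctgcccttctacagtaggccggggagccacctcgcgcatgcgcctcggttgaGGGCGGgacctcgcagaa
Mapk7: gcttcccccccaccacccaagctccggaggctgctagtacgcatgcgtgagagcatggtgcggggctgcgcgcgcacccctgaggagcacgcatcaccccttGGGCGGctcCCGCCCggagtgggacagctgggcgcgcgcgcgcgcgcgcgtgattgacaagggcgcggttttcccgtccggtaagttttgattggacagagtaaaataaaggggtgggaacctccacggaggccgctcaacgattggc
Mapk14: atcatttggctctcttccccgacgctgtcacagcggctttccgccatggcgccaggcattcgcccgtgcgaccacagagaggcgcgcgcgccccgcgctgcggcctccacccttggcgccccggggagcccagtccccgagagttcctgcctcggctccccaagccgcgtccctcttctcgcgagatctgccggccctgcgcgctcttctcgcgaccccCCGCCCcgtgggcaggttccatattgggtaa

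GC boxes are the only matches in these windows, 1 at Map2k2, 2 at Mapk7 and 1 at Mapk14. The region over the Mapk14 start was 500 bp long with 9.47 tags (5.18 to 15.9), and that over the Mapk7 start 640 bp with 10.1 tags (5.65 to 16.7), whereas the Map2k2 region ran over 3014 bp.

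Over all 52 windows the median GC content was 64.2%, against 55.6% over all coding genes, and the median number of CpG dinucleotides 19 against 10. A GC box was present in 35 of them, or 67.3%. This is close to the 64.8% found in the 860 windows of all coding genes touched by regions in both libraries, and 25 of the 40 windows touched in neither library (62.5%) also held one. An ETS core was found in 11 windows (21.2% against 15.4%), the AP-1 site in 2 (3.85% against 4.01%), the E box in 4 (7.69%) and the cyclic AMP response element in 3 (5.77%). The TATA letters were in none of the 52, and in 12.5% of all windows.

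Other genes of the pathway were examined as a list of 60, holding Ras and Raf genes, scaffolds, Sprouty and Spred inhibitors, Gadd45 genes and downstream kinases. Their pooled share was 4.76% in wild type against 3.92% in the knockout, and the covered length in the knockout was 82.3% of wild type, with 238 and 194 regions (ratio 81.5%, interval 67.1% to 98.9%). Of the 47 with a region, 29 had smaller and 18 larger shares in the knockout. Gadd45a, a stress-induced gene whose product activates MAP3K4, went from 1037 bp (44.9%) to 193 bp (8.35%). Spry1, a feedback inhibitor of Ras to ERK signalling, went from 1462 bp (31.4%) to no region. Mapk8ip1, which encodes the JNK scaffold JIP1, went from no region to 4 regions over 4388 bp (24.8%). These were the only 3 of the list past 20 points, 2 lower and 1 higher.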

How the data were processed

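Region lists of 1 wild-type and 1 Nsd2 knockout library were used. Per the submitters' processing notes, reads were processed with Trim Galore, Bowtie2, Picard, HOMER and deepTools against mm10, with no versions given. Per the file headers, the authors called regions on each library alone with HOMER in histone style, stitching peaks of 500 bp, with a Poisson threshold of 0.001 that came to 13 tags (wild type) and 12 tags (knockout). The deposited signal is a normalised tag count per 10000000 tags, so a change in the mark's total amount cannot be measured. The deposited score was used to rank regions within a list. In the common-threshold setting it was also a cutoff, at 13.92, for wild-type regions of 500 bp. The clonal fold change, a ratio deposited by the authors, was not used. Region length (other) was end minus start as deposited.

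From these files, covered base pairs, region rows with at least 1 bp in the gene body and summed tags of those whole regions were computed with scipy 1.17.1, pandas 2.3.3 and numpy 2.4.6 under Python 3.11.15, and drawn with matplotlib 3.10.9. The code was tested on simulated data and checked against bedtools. Gene bounds came from RefSeq on GRCm38.p6, and strand and start sites from its promoter table, using the most upstream listed start. Overlapping genes share regions. A gene was measured where its body had 2000 bp or more and a region in at least 1 library. Ratios of region numbers have exact binomial and tags exact Poisson 95% intervals.

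Members with at least 2000 covered bp in either library, the 3 of each family with the largest difference in covered share, and a list of 20 central genes were named with values, along with the 3 pathway genes of largest difference. A result for 1 member is not reported here, although its regions enter the counts. The members and lists were chosen with earlier results of these data known. Alternatives were stricter region sets, a common threshold on the score of wild-type regions of 500 bp, 5000 bp flanks and merging within 1000 bp. Further ones were other thresholds, medians of single genes, and, added after the data were seen, leaving out members that another coding gene overlaps.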

Additional observations from a re-analysis of the deposited data

How the results depend on the processing

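No paired analysis was possible because each genotype has 1 library. At the kinases, the common score threshold for wild-type regions of 500 bp brought covered length in the knockout to 95.7% of wild type. The number of regions came to 106%, above wild type. The other alternatives gave 64.3% to 91.0% for covered length. The common threshold removed wild-type regions alone, so it could only raise these ratios. For Dusp genes covered length stayed at 63.4% to 86.0% and region numbers at 53.6% to 85.0%. The 3 genes lower by 20 points became 0 with 5000 bp flanks. The 1 gene higher became 3 with regions of at least 1000 bp, with merged regions or with a threshold of 10 points. The number higher was 2 with the 50% of regions of highest tag count or score, with the common threshold or with at least 10 tags, and 4 with knockout shares divided by the covered-length ratio. The genes themselves also changed. With the 50% of highest score, Dusp2, Dusp7 and Mapk3 were lower, and Dusp1 and Dusp4 higher, without Mapk11. With 5000 bp flanks the 1 gene higher was Dusp1. With the 50% of highest tag count or at least 10 tags, Dusp2, Dusp7 and Dusp23 were lower. The gap between Dusp genes and kinases in wild type, 7.17 points, was 4.43 with regions of at least 1000 bp, 4.71 with the 50% of highest score and 0.81 as a median of single genes. In the knockout, 5.33 points became 2.97 and 0.83 under the last 2 of these. Mapk11 turned to -0.97 points with the 50% of highest score. Of 39 named kinase and phosphatase genes, 11 kept their sign under every alternative set of regions (Dusp4, Dusp7, Dusp10, Dusp13, Dusp22, Map2k2, Map2k5, Map3k4, Map3k14, Map4k4 and Mapk14), 12 took the opposite sign under at least 1 and 16 only reached 0. The cause of these changes was not tested.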

Other observations

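The Sprouty genes, feedback inhibitors of receptor tyrosine kinase signalling, were looked at together after their values were seen. Spry1, Spry2 and Spry4 each held 1 wild-type region and no knockout region, covering 31.4%, 15.3% and 4.30% of their bodies. Of the 60 listed pathway genes, 9 held a wild-type region alone and 5 a knockout region alone. Over all coding genes of at least 2 kb these shares were 13.3% and 9.05%. Hras, the gene of a Ras GTPase, went from 1 wild-type region (12.2%) to 3 knockout regions (28.4%). Each rests on 1 library per genotype and on few regions, and none was tested.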
